A study of Nothobranchius furzeri with 168 samples.

Results

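The set described here consists of 80 genes, of the 26739 gene IDs in the count table, that were chosen for higher levels in males than in females of the turquoise killifish strain GRZ-D at day 49, in brain and in skin alike. The members were chosen by measured values, the mean log2(CPM + 1) of each sex at that age, where CPM is a gene's count scaled to a library total of 1000000. For every gene the male mean minus the female mean was taken in brain and in skin, and the 80 genes with the largest smaller value were kept. The values at day 49 of GRZ-D therefore define the set and are given without a test. The questions asked of the data were how these genes behaved in fish that did not choose them: males of GRZ-D at other ages, and both sexes of the strains MZCS-0403 and MZM-0403. In no single comparison of the sexes in those strains were most members called higher in males. The absence of such calls says little by itself. Where the sexes had the same age, at most 0.492% of all genes were called higher in males, and elsewhere the sexes differed in age. The genes are thus called here by how they were chosen and not as male genes of the species.

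RNA was sequenced from brain and skin of 84 fish (Nothobranchius furzeri) of 3 strains, 168 libraries in all, with GRZ-D given as short-lived and the other strains as longer-lived. The labels name no treatment, batch or date, and each replicate is a separate fish. GRZ-D males were sampled as 8 fish at day 21, as 6 fish each at days 35, 49 and 147, and as 7 fish at day 100, and GRZ-D females as 3 fish at day 49. MZCS-0403 gave males at days 21 (6 fish), 39 (4), 147 (3) and 287 (2) and females at days 147 (1), 217 (5) and 287 (5). MZM-0403 gave males at days 21 (6), 35 (5) and 287 (6) and females at day 147 (5). MZM-0403 thus has no age at which both sexes were sampled, and in that strain sex and age cannot be told apart.

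The turquoise killifish has an XY system in which males carry the Y chromosome, with gdf6Y as the proposed sex-determining gene. Adult males are brightly coloured and females are drab, so the skin is among the tissues in which the sexes look most different. Sex hormones act on both brain and skin, and maturing fish change in both. The deposited IDs carry no gene names, and 0 of them occur in the gene table of the reference assembly NfurGRZ-RIMD1, so no member can be given a name, a role, a position or a sequence. Lists of pathway genes and of cell type markers by name could not be applied for the same reason, and the labelled tissue was checked by its overall profile.

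Library depth ranged between 18218533 and 41254724 counts in brain and between 12376397 and 36230200 counts in skin. Profiles of 152 libraries correlated with the mean profile of their labelled tissue at 0.897 to 0.989 and with that of the other tissue at 0.339 to 0.586. The 16 libraries of 8 fish went against their labels, at 0.383 to 0.520 with the labelled tissue and 0.950 to 0.981 with the other. These fish were all 6 GRZ-D males and female 8 of day 49, and female 7 of MZCS-0403 at day 287. The brain and skin columns of the first 7 of these fish were exchanged before the members were chosen, as the rule states. The mismatch and the sex of the day 49 fish therefore largely coincide and cannot be told apart in the choice of the members. All 8 fish were left out of every test. In addition, male 7 of MZM-0403 at day 35 stood apart in brain, with a correlation of 0.968 to the rest of its group (the lowest of 83 libraries, median 0.995) and of 0.978 to females of MZCS-0403 at day 287. Some results that use that fish are given with and without it, and the others include it.

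In GRZ-D at day 49, the members ranged from abundant to rare transcripts. The mean level in males was 2.69 to 561 CPM in brain (median 37.4) and 0.873 to 10349 CPM in skin (median 18.0), and in females it was 0.169 to 294 CPM in brain (median 15.5) and 0.0317 to 1766 CPM in skin (median 5.48). Male minus female differences on the log2(CPM + 1) scale had a median of 1.05 in brain (0.74 to 3.03) and 1.24 in skin (0.76 to 2.91), against medians of -0.01 and 0.02 over all genes with a count. The smaller difference was in brain for 53 members and in skin for 27. All 6 males lay above all 3 females for 67 members in brain (11.2% of all genes with a count), for 76 in skin (27.7%) and for 65 in both tissues (5.58%), counts that the choice of the members favours. Nfu_g_1_015122 and Nfu_g_1_004568 overlapped in both tissues. Female 8, whose columns were exchanged like those of the males and whose values entered the female means of the rule, lay below all 6 males in both tissues for 69 members. The choice of the members favours this count too, no share over all genes was taken for it, and it is no check of the exchange. At the edge of the rule, the smaller differences at places 78 to 80 were 0.745 (Nfu_g_1_017521), 0.743 (Nfu_g_1_009860) and 0.741 (Nfu_g_1_007186), and the next genes, Nfu_g_1_021389, Nfu_g_1_021550 and Nfu_g_1_022654, had 0.730, 0.730 and 0.721.

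**Figure D1:**
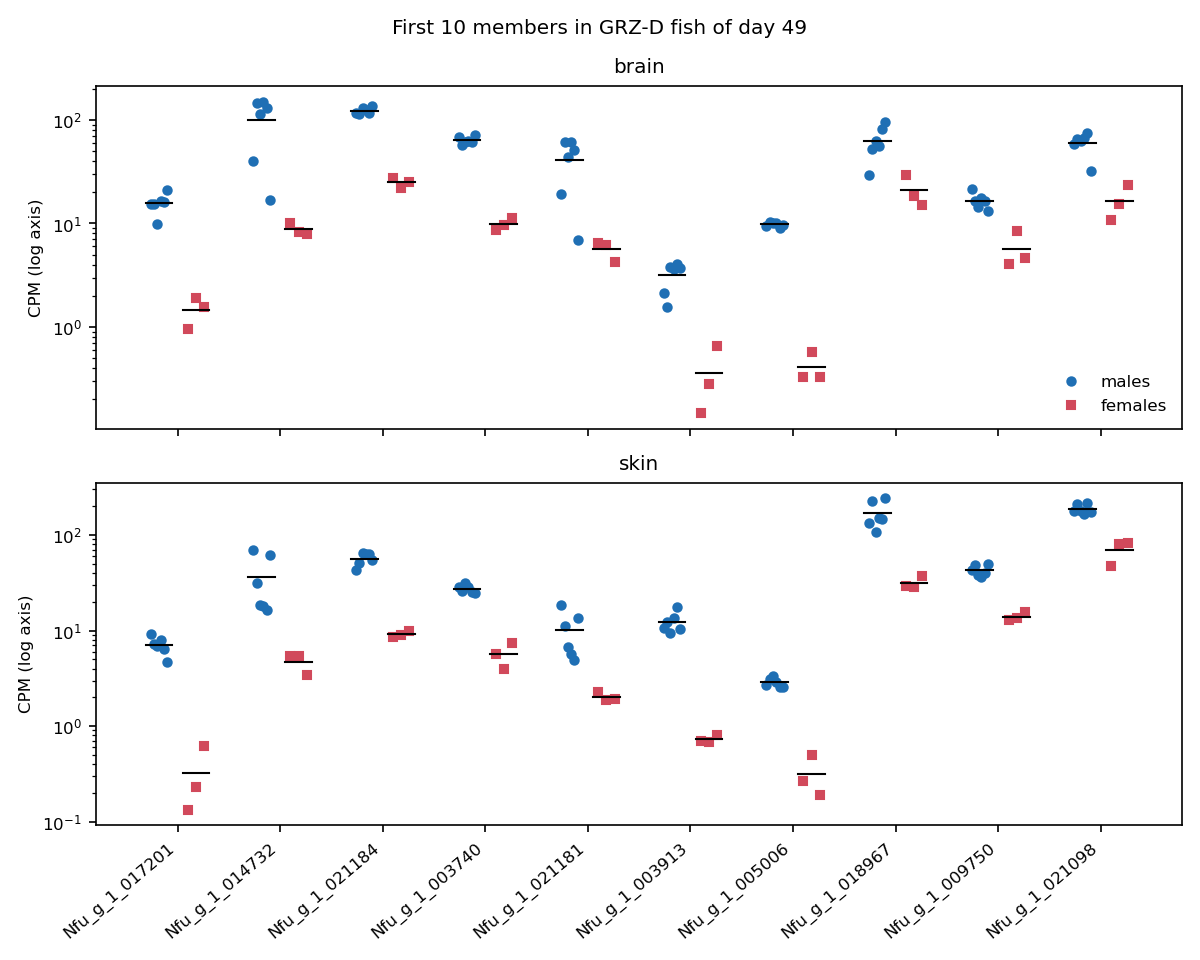
The first 10 members in GRZ-D fish of day 49: each point is 1 fish, males left (6) and females right (3), with CPM on a log axis in brain (top) and skin (bottom) and the mean as a black bar. Nfu_g_1_017201 sits at 9.87 to 20.9 CPM in male brain and 0.955 to 1.91 CPM in female brain, and Nfu_g_1_014732 spreads over 16.9 to 151 CPM in male brain.

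The first member by the rule, Nfu_g_1_017201, had 9.87, 15.9 and 20.9 CPM (lowest, median, highest of 6) in male brain, against 0.955, 1.91 and 1.54 CPM in the 3 females. In skin it had 4.74, 7.11 and 9.16 CPM in males, against 0.133, 0.228 and 0.618 CPM in females. The sexes lay far apart in both tissues. Nfu_g_1_014732, the second, had 16.9, 123 and 151 CPM in male brain, against 10.2, 8.26 and 7.93 CPM in female brain, and 16.5, 25.0 and 69.4 CPM in male skin, against 5.43, 5.36 and 3.42 CPM in female skin. Its males were spread widely and its females were not. Nfu_g_1_021184 and Nfu_g_1_003740 were the opposite, with narrow male ranges. Nfu_g_1_021184 averaged 124 ± 8.93 CPM in male brain and 25.0 ± 2.95 CPM in female brain, and 56.6 ± 8.49 CPM in male skin and 9.13 ± 0.637 CPM in female skin (SD, n = 6 males and 3 females). Nfu_g_1_003740 averaged 64.0 ± 5.45 CPM in male brain and 9.85 ± 1.26 CPM in female brain, and 27.5 ± 2.57 CPM in male skin and 5.69 ± 1.68 CPM in female skin. Nfu_g_1_021181 resembled Nfu_g_1_014732, at 6.91 to 61.7 CPM in male brain, against 4.25 to 6.43 CPM in female brain.

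Nfu_g_1_003913 had the largest difference in skin of all members, 2.91 on the log2(CPM + 1) scale, with 9.34, 11.4 and 17.6 CPM in male skin, against 0.700, 0.685 and 0.808 CPM in female skin. In brain it was low in both sexes, at 1.57 to 4.05 CPM in males and 0.147 to 0.647 CPM in females. Nfu_g_1_005006 had 9.03 to 10.4 CPM in male brain, against 0.331, 0.565 and 0.324 CPM in female brain, a narrow range in each sex. Of the remaining members among the first 10, Nfu_g_1_018967 averaged 168 ± 53.8 CPM in male skin and 31.8 ± 4.80 CPM in female skin, Nfu_g_1_009750 averaged 42.9 ± 5.67 CPM in male skin and 14.0 ± 1.55 CPM in female skin, and Nfu_g_1_021098 averaged 187 ± 20.4 CPM in male skin and 70.2 ± 19.7 CPM in female skin. The most abundant members were Nfu_g_1_001987, Nfu_g_1_005157 and Nfu_g_1_011785 in brain, and Nfu_g_1_014183, Nfu_g_1_000192 and Nfu_g_1_021098 in skin. Nfu_g_1_014183 averaged 10349 ± 2535 CPM in male skin and 1766 ± 429 CPM in female skin. In brain the same gene had 17.9 to 326 CPM in males, against 6.76, 3.53 and 419 CPM in females, with female 8 above every male. The brain profile of female 8, after the exchange, correlated with skin at 0.520, the top of the range of the libraries that went against their labels. The source of its high value was not tested.

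The sexes of MZCS-0403 at day 287 are the comparison closest to that of the rule, since both sexes have the same age there. More members had a positive than a negative log2 fold change, males over females, but few passed the test. Many members varied together between fish, as described below. Counts of members are thus not independent observations, and they rest on 2 males and 4 females. In brain, 58 of 80 members had a positive log2 fold change (50.6% of all genes did), with a median of 0.33 against 0.00 over all genes. By edgeR's quasi-likelihood test with Benjamini-Hochberg adjustment, 0 of 80 were called higher in males of day 287 in brain (0.23% of the 23016 genes tested were) and 0 were called lower (0.222%). At an unadjusted p under 0.05, 16 were higher and 3 lower, where 2341 of the 23016 genes passed in either direction. DESeq2 called 1 higher, for which no share over all genes is given. In skin, 59 of 80 were positive (47.9% of all genes), with a median of 0.31 against -0.01, 2 were called higher in males (0.492% of 23157 genes) and 0 lower (0.367%). At an unadjusted p under 0.05, 16 members were higher and 2 lower in skin, where 2684 of the 23157 genes passed in either direction. DESeq2 called 7 higher and 0 lower, again without a share over all genes. Both males lay above all 4 females for 22 members in brain (11.9% of genes with a count) and 41 in skin (24.5%), and below all of them for 6 in brain (10.5%) and 3 in skin (8.15%). The groups are small, and leaving out each fish in turn gave 0 to 4 members called higher in skin, with 0 without male 1, male 2, female 3 or female 5, 1 without female 4 and 4 without female 6.

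The 2 members called in skin were Nfu_g_1_018858 and Nfu_g_1_005459. Nfu_g_1_018858 had 11.3 and 12.2 CPM in the males, against 1.8, 2.03, 1.6 and 3.05 CPM in the females, a log2 fold change of 2.33 (SE 0.55, edgeR adjusted p = 0.0202). Nfu_g_1_005459 had 2.30 and 4.34 CPM in the males, against 0.586, 1.09, 0.694 and 1.03 CPM in the females, a log2 fold change of 1.81 (SE 0.45, edgeR adjusted p = 0.0301). Both males lay above all 4 females for each gene. Without 1 fish in turn the adjusted p of Nfu_g_1_018858 ranged from 0.0249 to 0.184, and the call was lost without female 3, 4 or 5 or either male. That of Nfu_g_1_005459 ranged from 0.0409 to 0.648, and its call was lost without female 3 or 5 or either male.

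**Figure D2:**
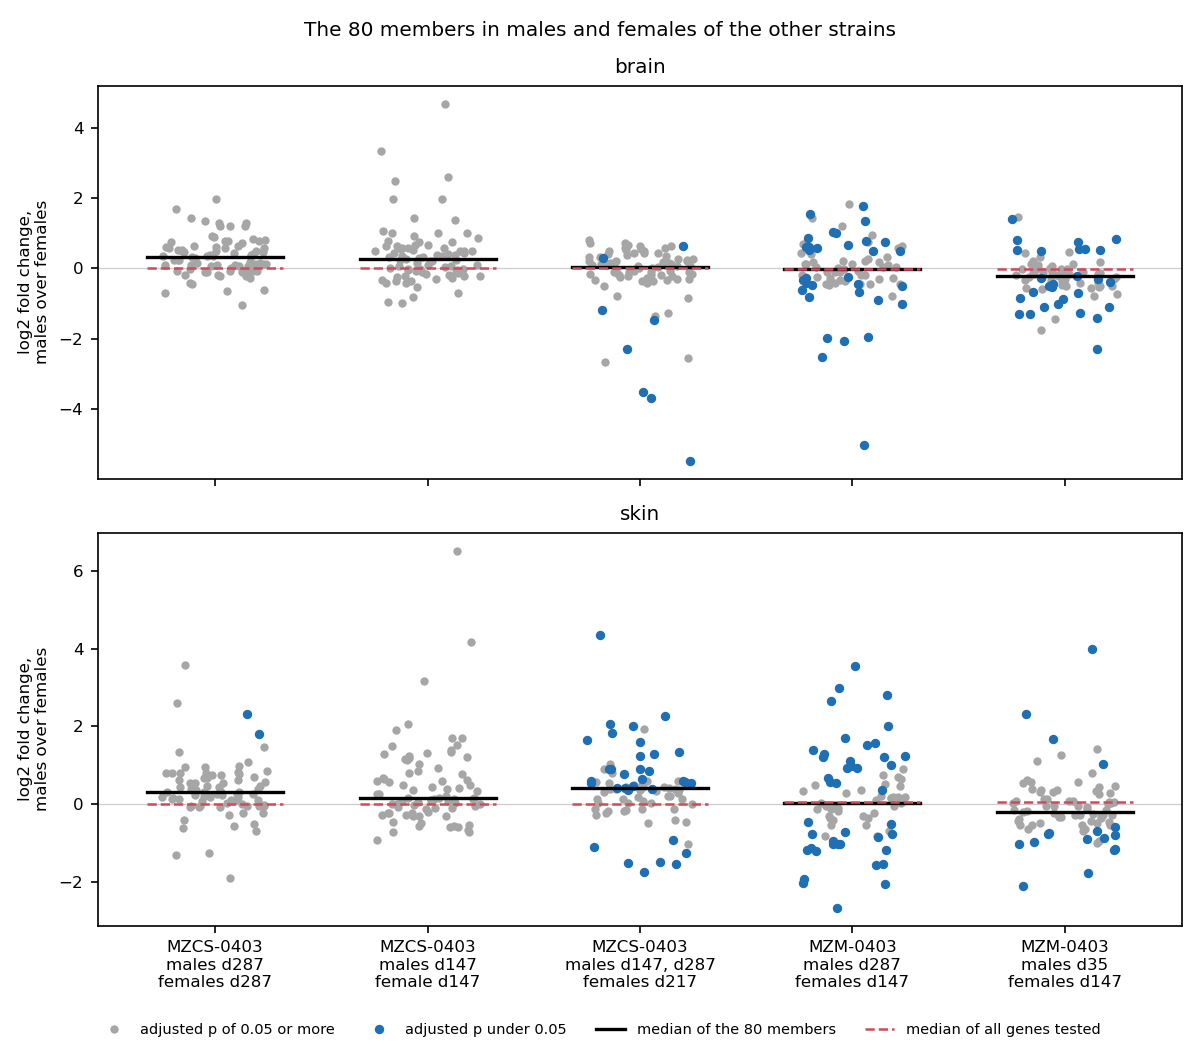
Log2 fold change of each of the 80 members, males over females, in 5 comparisons of the sexes in brain (top) and skin (bottom): blue points passed an adjusted p of 0.05, the black bar is the median of the members and the dashed red bar that of all genes tested. The members' median lies at 0.33 in brain and 0.31 in skin for MZCS-0403 at day 287, and at -0.23 and -0.20 for MZM-0403 males of day 35.

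At day 147 MZCS-0403 had 3 males and 1 female, so the spread of the lone female is taken from the other groups. Members were positive for 51 of 80 in brain (median 0.28 against 0.00 over all genes) and 52 of 80 in skin (median 0.16 against 0.00). By edgeR, 0 of 80 were called higher (0.0261% of genes) and 0 lower (0.0434%) in brain, and 0 higher (0.0518%) and 0 lower (0.108%) in skin. Counts at an unadjusted p are not given for this age, since the females are 1 fish. All 3 males lay above the female for 38 members in brain (25.8% of genes with a count) and 43 in skin (35.6%), and below it for 13 in brain (22.5%) and 11 in skin (20.1%). DESeq2 called 0 in either tissue, and without male 4 edgeR called 1 higher in skin.

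One more comparison in MZCS-0403 set males of days 147 and 287, as the mean of both ages, against females of day 217, which lie between them in age but match neither, so that sex and age cannot be told apart. In skin, 26 of 80 members were called higher in males (14.1% of all genes) and 7 lower (16.1%), and 61 were positive, with a median of 0.40 against 0.01 over all genes. All 5 males lay above all 5 females for 25 members (17.8% of genes with a count) in skin and for 0 in brain (1.31%), and below all of them for 0 in skin (2.39%) and 7 in brain (2.28%). In brain, 2 were called higher (2.38%) and 6 lower (2.84%), with a median of 0.05 against 0.00. In the skin comparison Nfu_g_1_017572 had a log2 fold change of 2.26 (edgeR adjusted p = 8.73e-05), Nfu_g_1_004681 of 2.05 (edgeR adjusted p = 0.00262) and Nfu_g_1_014183 of 2.02 (edgeR adjusted p = 0.000593). In the brain comparison Nfu_g_1_014732 was the most changed member and lay lower in males, at 0.464 to 0.825 CPM in the 5 males, against 17.0 to 37.0 CPM in the 5 females, with a log2 fold change of -5.47 (SE 0.71, edgeR adjusted p = 8.66e-08). The females of MZCS-0403 at the ages of those males also had low brain levels of Nfu_g_1_014732, 0.353 CPM at day 147 and 0.461 to 0.796 CPM at day 287. At day 147 and at day 287, where both sexes were sampled, males and females were alike low. The brain count of members higher ranged from 0 to 4 without 1 fish in turn: it was 0 without male 2 of day 287, 1 without male 3 or 4 of day 147 or female 2 or 5, and 4 without male 1 of day 147 or female 4.

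In MZM-0403, males of day 287 and males of day 35 were each set against the females of day 147. These comparisons share the females, so their calls are not independent of each other, and in each the sexes differ in age. For the males of day 287, 15 of 80 members were called higher (11.8% of genes) and 17 lower (16.4%) in brain, with a median of -0.01 against -0.03 over all genes. In skin 22 were called higher (21%) and 20 lower (21.2%), with a median of 0.02 against 0.04. For the males of day 35, 9 were called higher (12.1%) and 19 lower (12.4%) in brain, with a median of -0.23 against -0.02. In skin 4 were called higher (15.5%) and 13 lower (11.5%), with a median of -0.20 against 0.04. Males of day 287 lay above all females for 6 members in brain (5.69% of genes with a count) and 13 in skin (8.4%), and below all of them for 9 in brain (3.34%) and 9 in skin (9.93%). Males of day 35 lay above all females for 4 in brain (4.61%) and 2 in skin (2.64%), and below all of them for 10 in brain (3.1%) and 6 in skin (4.1%). Without female 2 or female 4, the brain count of members higher in males of day 287 was 8 or 9. Without male 7 of day 35, the counts for males of day 35 were 7 higher and 15 lower in brain and 3 higher and 11 lower in skin. No share over all genes is given for counts without single fish.

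For males of day 287, 10 members were called higher in both tissues and 6 were called lower in both. The higher ones were Nfu_g_1_000300, Nfu_g_1_002852, Nfu_g_1_003740, Nfu_g_1_004681, Nfu_g_1_008439, Nfu_g_1_015233, Nfu_g_1_018967, Nfu_g_1_020174, Nfu_g_1_021184 and Nfu_g_1_022187. Among all genes tested in both tissues, 5.39% were called higher in both and 8.11% lower in both. For males of day 35, 3 members were called higher in both tissues (4.07% of genes), Nfu_g_1_003740, Nfu_g_1_018967 and Nfu_g_1_021184, and 5 lower (3.62%). Some members moved in opposite directions in the tissues. Nfu_g_1_009750 was called lower in brain of males of day 287 (log2 fold change -0.90, edgeR adjusted p = 0.0177) and higher in skin (1.21, edgeR adjusted p = 0.00128). The brain call was lost without female 1, at an adjusted p of 0.085.

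Nfu_g_1_003740 was among the clearest members in MZM-0403. In skin it had 17.4, 43.6 and 75.7 CPM (lowest, median, highest) in the 17 males of all ages, against 4.62, 12.2, 2.99, 10.1 and 15.2 CPM in the 5 females. In brain it had 35.7, 63.5 and 161 CPM in the males, against 19.6, 13.2, 25.2, 22.3 and 42.0 CPM in the females. The sexes did not overlap in skin and overlapped in brain. For males of day 287 against females, its log2 fold change was 1.78 in brain (SE 0.21, edgeR adjusted p = 3.45e-09) and 2.65 in skin (SE 0.28, edgeR adjusted p = 7.84e-12). For males of day 35 it was 1.40 in brain (SE 0.21, edgeR adjusted p = 9.62e-07) and 1.68 in skin (SE 0.27, edgeR adjusted p = 6.85e-06). The value of 161 CPM in brain belongs to male 7 of day 35, against 35.7 to 51.0 CPM in the other 4 males of its group, and without it the brain log2 fold change was 0.81 (edgeR adjusted p = 9.95e-05). In MZCS-0403 the same gene did not pass the test. At day 287 it had 82.2 and 81.8 CPM in male brain, against 62.0, 72.2, 60.1 and 44.8 CPM in female brain, a log2 fold change of 0.46 (edgeR adjusted p = 0.632), and in skin the log2 fold change was 0.37 (edgeR adjusted p = 0.81). At day 147, with 1 female, it was 0.65 in brain and 0.59 in skin. For males of days 147 and 287 against females of day 217 it was negative, at -0.19 in brain and -0.40 in skin.

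Nfu_g_1_021184 and Nfu_g_1_018967 also stood higher in MZM-0403 males in both tissues. Nfu_g_1_021184 had 83.6 to 111 CPM in brain of males of day 287, against 47.0 to 94.8 CPM in brain of the females, with a log2 fold change of 0.53 (SE 0.13, edgeR adjusted p = 0.00181). In skin it was 1.10 (SE 0.21, edgeR adjusted p = 1.02e-05). In MZCS-0403 its log2 fold changes were -0.06 in brain and 0.11 in skin at day 287, and 0.23 and 0.50 at day 147, with 1 female. For males of days 147 and 287 against females of day 217 they were -0.37 and -0.27. Nfu_g_1_018967 had 58.0, 100 and 141 CPM in skin of the 6 males of day 287, against 2.41, 3.08, 8.75, 7.49 and 20.4 CPM in the females, and the groups did not overlap. Its log2 fold change was 3.55 in skin (SE 0.88, edgeR adjusted p = 0.000645) and 1.55 in brain (SE 0.29, edgeR adjusted p = 3.53e-05). For males of day 35 its log2 fold change was 0.81 in brain (edgeR adjusted p = 0.0339) and 2.31 in skin (edgeR adjusted p = 0.0358). That call was lost in brain without male 7 or 12 or female 2, 4 or 5 (adjusted p 0.0763 to 0.117), and in skin without male 2, 4 or 7 or female 1, 2 or 4 (adjusted p 0.0515 to 0.101).

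Across all ages and both longer-lived strains, 1 member separated the sexes, and it did so in skin. Nfu_g_1_003913 had 0.104, 0.722 and 4.44 CPM in skin of the 15 MZCS-0403 males, against 0 to 0.0779 CPM in skin of the 10 females. In MZM-0403 it had 1.01, 3.67 and 11.5 CPM in skin of the 17 males, against 0.483, 0.192, 0.339, 0.322 and 0.0321 CPM in the 5 females. Every male of a strain lay above every female of that strain. Of 24963 genes with a count in both strains, 6 (0.024%) had this property in skin, and in brain 0 of 25288 genes had it. Within MZCS-0403 alone it held in skin for 1 member (0.181% of genes) and in brain for 0 (0.0235%). Within MZM-0403 alone it held in skin for 2 members, Nfu_g_1_003913 and Nfu_g_1_003740 (0.425%), and in brain for 0 (0.652%). Female 7 of MZCS-0403 at day 287, counted here with its tissues exchanged, had 0.0338 CPM.

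The female levels of Nfu_g_1_003913 in MZCS-0403 rest on very few reads. The female of day 147 had 0 counts, a result that allows up to 3 counts, the 5 females of day 217 had 2 counts in all, and the 5 females of day 287 had at most 2 counts each, against 3 to 91 counts in each male library. No fold change is given for this strain for that reason. In males of days 147 and 287 against females of day 217, the gene was called higher in skin (edgeR adjusted p = 0.00257, higher in 5 of 5 males). At day 287 (edgeR adjusted p = 0.128; DESeq2 adjusted p = 0.0289) and at day 147 (edgeR adjusted p = 0.34) it was not called by edgeR. In MZM-0403 skin, where the females had 1 to 14 counts each, the log2 fold change was 3.0 for males of day 287 (SE 0.62, edgeR adjusted p = 5.2e-05) and 3.98 for males of day 35 (SE 0.63, edgeR adjusted p = 4.53e-06). Without male 7 of day 35, at 11.5 CPM against 1.10 to 3.67 CPM in the rest of its group, the log2 fold change for males of day 35 was 3.06 (edgeR adjusted p = 0.000146). In brain of MZM-0403 the direction depended on the age of the males. MZM-0403 males of day 287 had 0.232 to 0.804 CPM in brain, against 0.503 to 3.10 CPM in the females, with a log2 fold change of -1.98 (SE 0.69, edgeR adjusted p = 0.0248). That call was lost without female 1 (adjusted p = 0.115) or female 5 (adjusted p = 0.0608). Males of day 35 had 0.473 to 7.67 CPM in brain, the lowest being male 7, with a log2 fold change of 1.47 over the same females that did not pass the test (SE 0.65, edgeR adjusted p = 0.0909). It passed without male 7 (1.76, edgeR adjusted p = 0.0373) or without female 1 (1.90, edgeR adjusted p = 0.0477).

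In GRZ-D males, skin Nfu_g_1_003913 was detected at every age, with medians of 4.28, 11.2, 11.4, 10.3 and 15.9 CPM at days 21, 35, 49, 100 and 147. Males of day 35 were higher than males of day 21 (log2 fold change 1.37, SE 0.43, edgeR adjusted p = 0.0134). The GRZ-D females of day 49, at 0.685 to 0.808 CPM, lay above the MZM-0403 and MZCS-0403 females and within the range of MZCS-0403 males. At day 21 GRZ-D males were higher than MZCS-0403 males in skin (log2 fold change 1.76, SE 0.47, edgeR adjusted p = 0.00201). The MZM-0403 males of day 21 had 4.01 to 5.58 CPM (median 4.87), within the 1.88 to 8.49 CPM of the GRZ-D males.

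**Figure D3:**
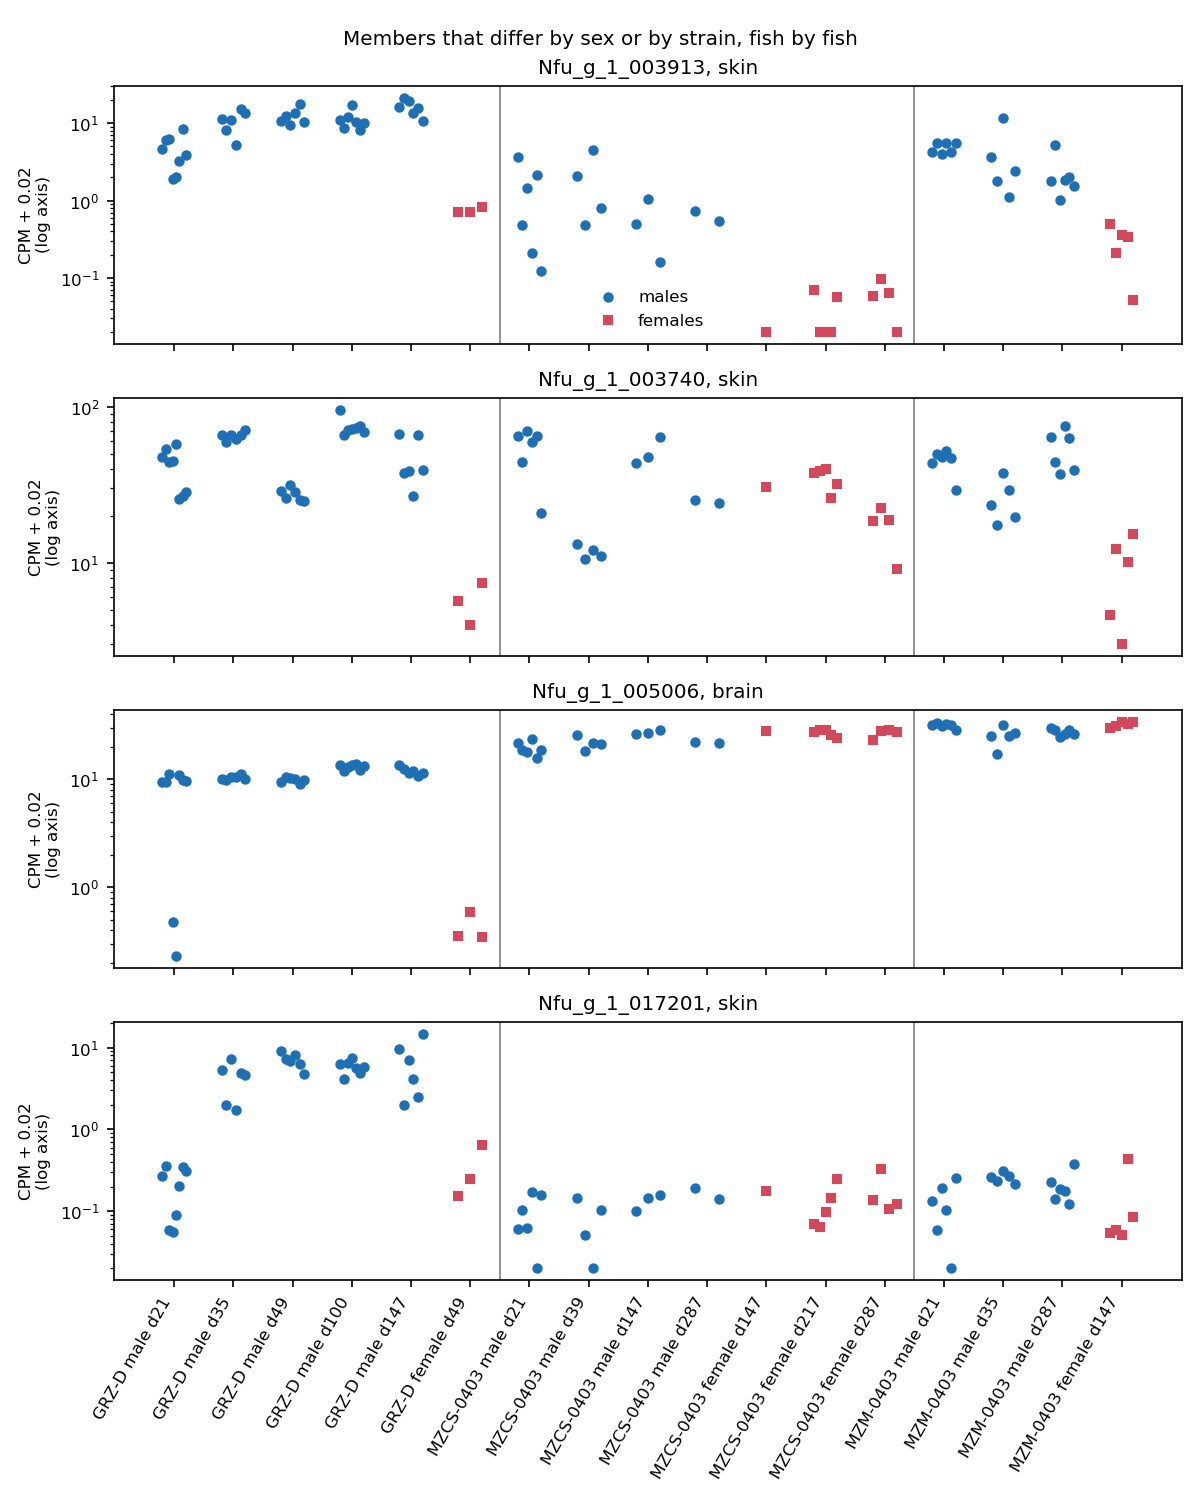
CPM plus 0.02 on a log axis for each fish in every group, for Nfu_g_1_003913, Nfu_g_1_003740 and Nfu_g_1_017201 in skin and Nfu_g_1_005006 in brain. Nfu_g_1_003913 separates males from females within MZCS-0403 and within MZM-0403. In GRZ-D the difference of the sexes at day 49 chose the gene. Nfu_g_1_017201 reaches 1.71 to 14.6 CPM in GRZ-D males from day 35 on and stays at 0.414 CPM or less in both sexes of the other strains.

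Nfu_g_1_017201, first by the rule, was higher in skin of GRZ-D males from day 35 on than at day 21. At day 21 the 8 GRZ-D males had 0.0362 to 0.340 CPM in skin, the 6 males of day 35 had 1.71 to 7.27 CPM, the 7 of day 100 had 4.13 to 7.34 CPM and the 6 of day 147 had 1.96 to 14.6 CPM. Males of day 35 and day 21 did not overlap, with a log2 fold change of 4.59 (SE 0.42, edgeR adjusted p = 1.48e-12). In MZCS-0403 and MZM-0403 skin levels stayed between 0 and 0.414 CPM in both sexes at every age. The 0.414 CPM belongs to an MZM-0403 female, in a group with a median of 0.0385 CPM. In skin MZM-0403 males of days 287 and 35 were not called over these females, which depended on the alternatives given below. In brain, in contrast, some fish of both sexes in the other strains reached levels similar to those of GRZ-D males. MZCS-0403 males of day 287 had 14.0 and 16.1 CPM, against 1.04, 7.79, 5.99 and 0.669 CPM in the females of that age. Females reached 19.4 CPM in MZCS-0403 at day 217 (median 1.39) and 12.9 CPM in MZM-0403 at day 147 (median 0.757). MZCS-0403 males of day 39 had 0.565 to 1.19 CPM, and MZM-0403 males of day 35 had a median of 1.53 CPM. Male medians at day 21 were higher, at 17.5 CPM in MZCS-0403 and 10.8 CPM in MZM-0403. The MZM-0403 males of day 287 had 6.52 to 11.9 CPM (median 11), a log2 fold change of 1.43 over the females that was not called. Its call depended on the alternatives, with log2 fold changes of 1.12 to 2.74.

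Nfu_g_1_005006 and Nfu_g_1_002117 were lower in GRZ-D males than in males of the other strains at day 21, and in none of the 5 comparisons of the sexes were they called higher in males. In brain, Nfu_g_1_005006 had 15.6 to 28.7 CPM in MZCS-0403 males, against 23.0 to 28.6 CPM in MZCS-0403 females, and 17.0 to 32.9 CPM in MZM-0403 males, against 29.7 to 34.0 CPM in MZM-0403 females. In skin it was called lower in MZM-0403 males of day 287 (log2 fold change -0.78, edgeR adjusted p = 0.0133). At day 21, GRZ-D males were lower than MZCS-0403 males (log2 fold change -1.40 in brain, SE 0.26, edgeR adjusted p = 1.48e-05) and lower than MZM-0403 males (-2.08, SE 0.26, edgeR adjusted p = 1.32e-09). These comparisons share the GRZ-D males. For Nfu_g_1_002117 the brain log2 fold changes at day 21 were -2.42 against MZCS-0403 (edgeR adjusted p = 5.82e-12) and -2.60 against MZM-0403 (edgeR adjusted p = 4.87e-13).

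Among the 8 GRZ-D males of day 21, males 4 and 5 had levels of Nfu_g_1_005006 like those of the females of day 49. Their brain values were 0.456 and 0.209 CPM, against 9.38 to 11.2 CPM in the other six fish, and their skin values were 0.254 and 0.178 CPM, against 1.74 to 3.08 CPM. Nfu_g_1_002117 had 0.166 and 0.125 CPM in brain of these fish, against 3.56 to 4.13 CPM in the other six. Males 4 and 5 were also the lowest pair in both tissues for Nfu_g_1_003913, Nfu_g_1_004887 and Nfu_g_1_002214, which makes 5 of 80 members. Other fish were the lowest pair in both tissues for Nfu_g_1_011785 (males 2 and 3) and for Nfu_g_1_020839 and Nfu_g_1_001831 (males 1 and 3). No share over all genes was taken for such pairs. Skin Nfu_g_1_003913 had its low end of 1.88 CPM in this group, which is still above the GRZ-D females of day 49. In brain its low end in this group was 0.166 CPM, within the 0.147 to 0.647 CPM of those females. The pattern of males 4 and 5 was noticed in the data, the labels give both fish as males, and nothing in the labels sets them apart.

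Members differed between ages in both directions, and the cause was not tested. In GRZ-D males, 5 of 80 were called higher (14.5% of genes) and 24 lower (14.2%) at day 35 than at day 21 in brain, and 5 higher (10.9%) and 19 lower (12.6%) in skin. Of the 24, 10 belong to a set of 18 members described below. Its mean brain level was 3.24 to 3.63 at day 35, on the log2(CPM + 1) scale. At day 21 it was 3.11 to 3.25 in males 1, 3, 5 and 7 and 4.44 to 4.83 in males 2, 4, 6 and 8. At day 147 against day 35, 17 were higher (12.1%) and 8 lower (12.8%) in brain, and 35 higher (29.3%) and 11 lower (22.2%) in skin, with a skin median of 0.34 against 0.11 over all genes. In both tissues at once, 10 were higher (5.53% of genes) and 4 lower (6.59%). In MZM-0403 males at day 287 against day 35, 24 were higher (17.1%) and 9 lower (20.8%) in brain and 26 higher (18.9%) and 12 lower (24.8%) in skin. Without male 7 of day 35 the brain counts were 18 higher and 12 lower, again without a share over all genes.

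**Figure D4:**
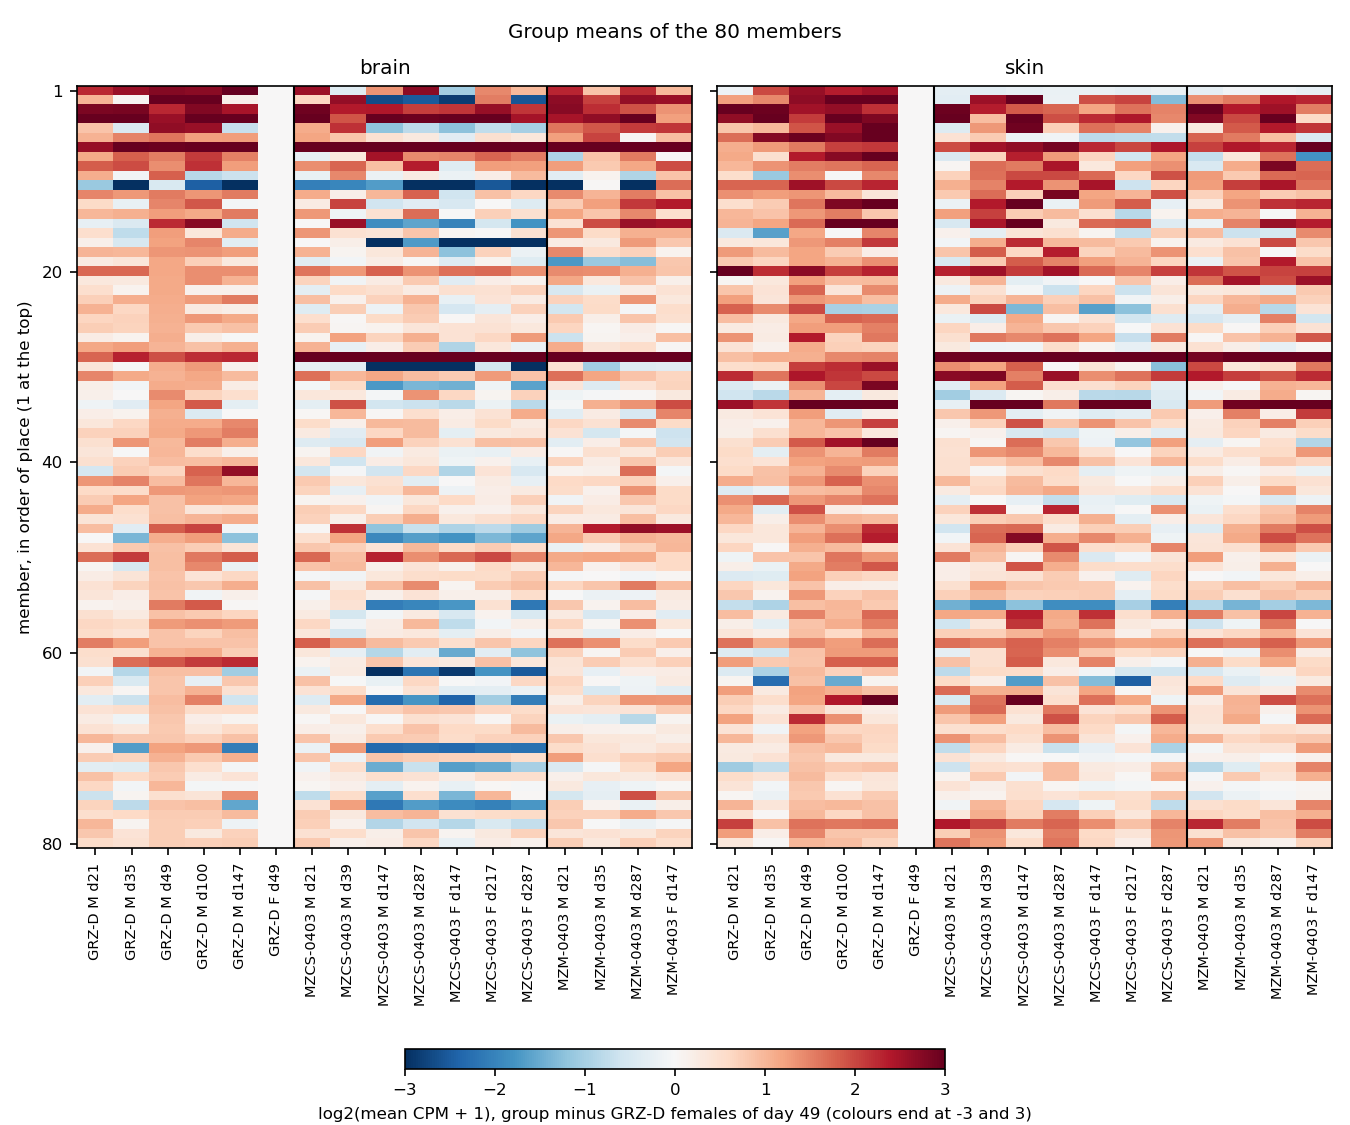
Each row is 1 member (place 1 at the top) and each column 1 group of fish, in brain (left) and skin (right), coloured by log2(mean CPM + 1) of the group minus that of the GRZ-D females of day 49, with colours ending at -3 and 3. The difference of the sexes at day 49 chose the members, and the levels also differ between ages and strains. The GRZ-D males of day 100 lie nearer the day 49 males than the day 49 females for 62 members in brain and 67 in skin. Those of day 35 do so for 39 and 29.

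The largest called changes between day 147 and day 35 in GRZ-D males were as follows. In brain Nfu_g_1_020053 had 64.1, 88.8 and 106 CPM at day 147, against 17.2, 23.8 and 26.7 CPM at day 35, a log2 fold change of 1.94 (SE 0.22, edgeR adjusted p = 9.13e-11). Nfu_g_1_023161 had 225, 257 and 271 CPM at day 147, against 97.8, 103 and 119 CPM at day 35, a log2 fold change of 1.27 (SE 0.08, edgeR adjusted p = 1.57e-20). Neither gene overlapped between the ages, and both had been higher at day 21 than at day 35, with Nfu_g_1_023161 at 213 to 255 CPM. The largest falls in brain were smaller, with a log2 fold change of -0.77 for Nfu_g_1_005157 (SE 0.21, edgeR adjusted p = 0.004) and -0.63 for Nfu_g_1_003740 (SE 0.19, edgeR adjusted p = 0.0099). In skin Nfu_g_1_018858 had 148, 223 and 864 CPM at day 147, against 7.13, 16.4 and 32.3 CPM at day 35, a log2 fold change of 3.61 (SE 0.40, edgeR adjusted p = 3.96e-11). Skin Nfu_g_1_018967 was also higher at day 147, with a log2 fold change of 3.25 (SE 0.80, edgeR adjusted p = 0.000517). Skin Nfu_g_1_000192 fell to 42.5, 83.5 and 268 CPM at day 147, against 402, 553 and 621 CPM at day 35, a log2 fold change of -2.91 (SE 0.31, edgeR adjusted p = 1.65e-11). Nfu_g_1_012945 had a log2 fold change of -1.54 (SE 0.30, edgeR adjusted p = 2.1e-05).

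At day 21, before the age that chose the members, GRZ-D males were set against males of each other strain, and both comparisons share the GRZ-D males. Against MZCS-0403, 15 of 80 members were called higher in GRZ-D (17.2% of genes) and 9 lower (17%) in brain, and 27 higher (19.8%) and 14 lower (21.9%) in skin. Against MZM-0403, 24 were higher (17.6%) and 12 lower (17.4%) in brain, and 22 higher (21.6%) and 15 lower (20.8%) in skin. The medians were 0.10 and 0.17 in brain and skin against MZCS-0403, and 0.01 and 0.14 against MZM-0403. Among the first 10, Nfu_g_1_018967 was higher in GRZ-D brain, by 1.39 against MZCS-0403 (SE 0.26, edgeR adjusted p = 1.33e-05) and by 2.12 against MZM-0403 (SE 0.27, edgeR adjusted p = 1.8e-09).

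The members can also be placed by whether a group's mean level lay nearer that of the day 49 males or that of the day 49 females of GRZ-D. In brain, GRZ-D males were nearer the males for 40, 39, 62 and 49 of 80 members at days 21, 35, 100 and 147, and in skin for 40, 29, 67 and 63. In MZCS-0403 at day 287 the males were nearer for 45 members in brain and 48 in skin, and the females for 31 and 38. At day 147 the MZCS-0403 males were nearer for 24 and 56, and the 1 female for 19 and 40. In MZM-0403 the females of day 147 were nearer the GRZ-D males for 36 members in brain and 49 in skin. The MZM-0403 males were nearer for 43 and 27 at day 21, 27 and 38 at day 35, and 46 and 48 at day 287. These counts describe levels only and carry no test.

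The members fell into groups that varied together among fish of the same group. Deviations from the group mean were correlated over 73 fish of 14 groups in brain, and members were joined while their mean correlation stayed at 0.6 or more, a grouping made from these values and given without a test. This gave 10 sets, the largest with 22 and 18 members, and left 20 members in no set. The fish share libraries across genes, so these correlations describe the data and carry no p. The set of 18 includes Nfu_g_1_014732, Nfu_g_1_021181, Nfu_g_1_018858, Nfu_g_1_005459 and Nfu_g_1_005157. Its mean brain level, on the log2(CPM + 1) scale, was 3.92, 3.45, 5.20, 5.47 and 3.46 in GRZ-D males at days 21, 35, 49, 100 and 147, and 3.92 in the GRZ-D females. In MZCS-0403 males it was 4.04, 5.0, 2.16 and 2.55 at days 21, 39, 147 and 287, and in the females 2.17, 3.14 and 2.32 at days 147, 217 and 287. The sexes of the same age were thus nearer each other in brain than males of days 39 and 147 were. In skin the same set lay at 4.88 in males and 3.79 in the female at day 147, and at 3.30 in males and 2.61 in females at day 287, so that the sexes were further apart there.

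Within the GRZ-D males of day 21, the mean brain level of this set formed a high range, 4.44 to 4.83 in males 2, 4, 6 and 8, and a low range, 3.11 to 3.25 in males 1, 3, 5 and 7. The MZM-0403 males of day 35 lay at 4.62 to 4.93 except male 7, at 2.70, which is near the older MZCS-0403 fish. The GRZ-D males of day 49 themselves spread over 4.12 to 5.76. Fish of one group thus differed in this set by as much as the GRZ-D sexes did at day 49. The cause of these differences was not tested.

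**Figure D5:**
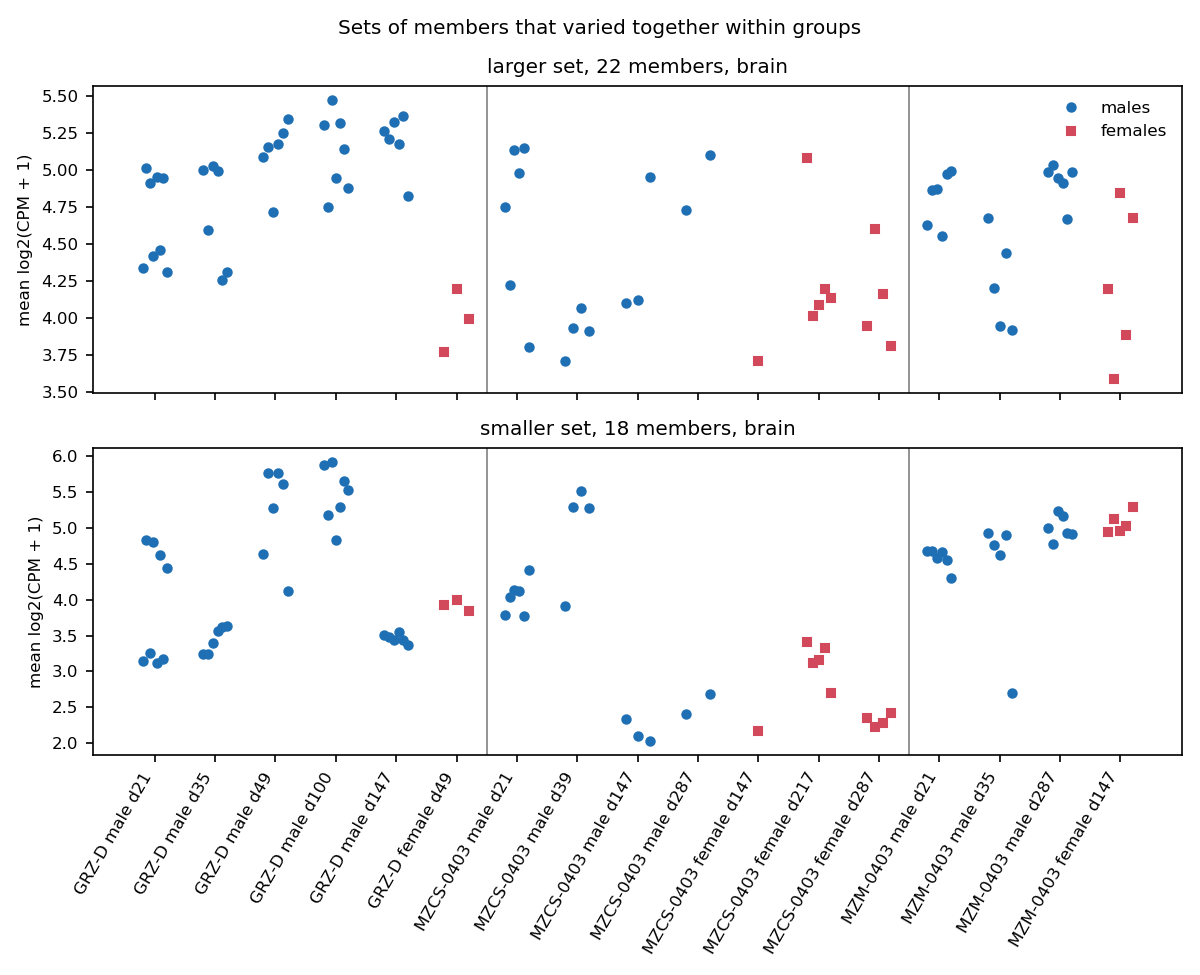
Mean log2(CPM + 1) in brain of the sets of 22 and 18 members for each fish, by group, with female 7 of MZCS-0403 at day 287 left out. The set of 18 divides the GRZ-D males of day 21 into fish at 4.44 to 4.83 and fish at 3.11 to 3.25, and lies at 2.16 to 2.55 on average in MZCS-0403 males of days 147 and 287.

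The set of 22 members includes Nfu_g_1_017201, Nfu_g_1_001987 and Nfu_g_1_012945 and moved less. Its mean brain level was 4.67, 4.70, 5.12, 5.12 and 5.20 in GRZ-D males at days 21, 35, 49, 100 and 147, and 3.99 in the GRZ-D females. In MZCS-0403 males it was 4.67, 3.905, 4.39 and 4.92 at days 21, 39, 147 and 287. In the females it was 3.70, 4.30 and 4.13 at days 147, 217 and 287, with 1 fish at day 147. Males of day 39 thus lay below the females of days 217 and 287. In MZM-0403 it was 4.81, 4.24 and 4.92 in males at days 21, 35 and 287, and 4.24 in the females of day 147. In brain 9 of its 22 members were called higher in MZM-0403 males of day 287 than in the females (11.8% of all genes were). Between ages, 11 were called higher in GRZ-D males of day 147 than of day 35 (12.1%), and 14 in MZM-0403 males of day 287 than of day 35 (17.1%). Brain calls higher in males were 0 for MZCS-0403 at day 287 (0.23%) and for its males of days 147 and 287 against females of day 217 (2.38%). The count was also 0 for MZM-0403 males of day 35 against females (12.1%) and for GRZ-D males of day 35 against day 21 (14.5%). In skin of MZM-0403 males of day 287, 7 were called higher (21%) and 4 lower (21.2%). The set was made from brain values that vary together, so its calls are not independent. The mean brain levels of the MZM-0403 males of day 35 and of the females were alike, but the fish of each group were spread. The males lay at 3.92 to 4.68, with male 7 the lowest, and the females at 3.58 to 4.85.

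Within groups, members varied more than genes at large. The median within-group SD on the log2(CPM + 1) scale was 0.343 in brain and 0.415 in skin over members, against 0.171 and 0.295 over genes with a mean above 1. Those genes were not matched to the members in level, and a choice by large differences can favour genes that vary between fish. For 3 members the SD in brain was at least as large as the difference at day 49 that chose them: Nfu_g_1_014183 (SD 1.71), Nfu_g_1_020348 (SD 1.58) and Nfu_g_1_012979 (SD 1.46). Nfu_g_1_014183, the most abundant member in skin, had 3.46 to 7.96 CPM in 3 of the MZM-0403 females and 424 CPM or more in the other two. It was called lower in brain of MZM-0403 males of day 287 (log2 fold change -5.02, SE 1.12, edgeR adjusted p = 0.000468), and without female 1, the highest, the log2 fold change was -2.88 (edgeR adjusted p = 0.0292). The brain library of female 1 had the lowest correlation with its labelled tissue (0.897) and the highest with the other (0.586) of the 152 libraries. Whether skin RNA adds to the brain levels of this gene was not tested. The brain and skin deviations of the same fish correlated at a median of 0.16 over members (from -0.18 to 0.70), against 0.125 over 18727 genes, and 5 members exceeded 0.5, as 3.89% of genes did. The highest were Nfu_g_1_005006, at 0.70, and Nfu_g_1_002117, at 0.65. In whole tissue, fewer cells of a type and less RNA per cell cannot be told apart, which holds for every level given here.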

How the data were processed

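RNA was extracted with RNeasy kits and libraries were made with TruSeq RNA v2 kits, per the labels' protocols. The authors deposited raw read counts per gene, unnormalized, in one table of 168 libraries, with bcl2fastq 1.8.4, STAR 2.5.1b and featureCounts 1.5.0 named in the submitters' processing notes. The genome build and annotation are not given in the sources used here. Of 26739 IDs, 752 had no count in any library.

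Levels are CPM by column total (Python 3.11.15, numpy 2.4.6, pandas 2.3.3, matplotlib 3.10.9). For tests, the 152 libraries of the 76 fish whose tissues matched their labels were fitted, one fit a tissue over all groups, with edgeR 4.0.16 and limma 3.58.1 (R 4.3.3): TMM scaling, filterByExpr with a minimum count of 10, which all 80 members passed, the quasi-likelihood test, and Benjamini-Hochberg adjustment over all genes tested. Called means an adjusted p under 0.05. SEs were derived as the absolute log2 fold change over the square root of the F statistic. The code was tested on simulated data.

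Genes named are the first 10 members, the edge of the rule, the 3 most abundant members per tissue, members called between the sexes of MZCS-0403 at day 287 or in all 5 sex comparisons, and the 2 largest called rises and falls per tissue between days 35 and 147 in GRZ-D males. Others were named after their values were seen. The members and lists were chosen with earlier results of these data known.

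Alternatives were RLE size factors, DESeq2 1.42.0, no filter, the 8 fish kept as labelled or exchanged, a replicate block and leaving out single fish. Counts of members under these alternatives carry no share over all genes. A change in them thus cannot be told apart from a change in calls over all genes. Fish numbers were not taken to pair samples, since in no comparison did every same-numbered pair deviate together at a correlation over 0.1.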

Additional observations from a re-analysis of the deposited data

Results flagged for a closer look

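Of 38 groups of 4 to 10 fish examined for the members named by rule, 4 held a fish set apart from the others by a gap that is large against the range of its group, and chance marks about 1 group in 20. Nfu_g_1_021098 had its lowest brain value of the GRZ-D males of day 49 in male 6, at 32.52 CPM, with the next at 58.37 CPM. In brain of the GRZ-D males of day 35, Nfu_g_1_020053 had its lowest value in male 2, at 17.2 CPM, with the next at 23.24 CPM. In the same group Nfu_g_1_023161 had its highest value in male 6, at 119.2 CPM, with the next at 103.3 CPM, and Nfu_g_1_003740 had its highest in male 4, at 171.1 CPM, with the next at 158.5 CPM. The source of these values was not tested.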

How the results depend on the processing

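Which genes are members depended on the rule's settings: of the 80 members, 25 were chosen again with brain and skin as labelled, 45 with log2(CPM + 0.1), 72 with TMM-scaled CPM, and 60 to 74 without 1 fish of day 49. For the sexes of MZCS-0403 at day 287, members higher in males in brain numbered 0, against 2 with the 8 fish kept as labelled, 1 with DESeq2 and 0 to 1 without 1 fish in turn. In skin they numbered 2, against 7 as labelled, 7 with DESeq2, 1 with the replicate block and 0 to 4 without 1 fish. At day 147 the skin count was 0, and 0 to 1 without 1 fish. For MZCS-0403 males of days 147 and 287 against females of day 217, the brain count was 2, against 0 as labelled, 4 with brain and skin of the 8 fish exchanged, 4 with the replicate block, 4 with DESeq2 and 0 to 4 without 1 fish, and the skin count was 26, against 17 as labelled. For MZM-0403 males of day 287 in brain it was 15, against 8 as labelled and 8 to 20 without 1 fish. With the fish kept as labelled, members changed in brain numbered 19 and not 29 between days 35 and 21 of GRZ-D, 12 and not 25 between its days 147 and 35, 14 and not 33 between days 287 and 35 of MZM-0403, and 15 and not 24 between GRZ-D and MZCS-0403 at day 21. These counts are given without the shares over all genes in the same fits, and the causes were not tested. The replicate block moved no other count by more than 1.5 times. Of the values of single members under the alternatives, 1358 kept direction and side of the threshold, 39 lost a call and 13 gained one, and 46 changed sign, of which 0 were called in either fit. Groups of 6 or more fish were left whole. Low counts limit Nfu_g_1_003913 in females. Intervals and floors, where given, hold counting error alone.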
